A study of Homo sapiens with 24 samples.

Results

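The nuclear genes for mitochondrial ribosomal proteins were followed across 24 RNA libraries. Genes were taken by symbol, MRPL or MRPS with a number and an optional letter A to C, with a total of at least 240 counts over all libraries. Of 59251 rows in the count table, 78 carried such a symbol and 77 passed the limit. MRPS24 lay outside, with 72 counts in all and 0 to 18 in a library. The lowest total inside the limit was that of MRPS28, far above it at 8747. The largest total was 401718, for MRPS18B. All 77 genes also passed the filter on low counts that left 20820 genes for testing.

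The libraries hold poly(A) RNA from derivatives of MCF10A, an established breast epithelial cell line that does not form tumours. The labels call PM MYC-transformed and PE non-transformed, and do not spell out these letters. The 6 groups were PM with CHD1 hairpin B, PM with CHD1 hairpin A, PM with a GFP hairpin as control, and the same 3 hairpins in PE. Every group, the controls included, had received doxycycline at 50 ng/ml for 72 h, and each held 4 libraries labelled as biological replicates. The labels do not say that these came from separate cultures, so the spread behind each p-value is that between these libraries and may be technical.

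Mitochondria translate the few proteins encoded by their own genome on a ribosome of their own. Its RNA comes from mitochondrial DNA, while its proteins are encoded in the nucleus, made in the cytosol and imported. These proteins are split between a small subunit, which reads the message, and a large subunit, which forms peptide bonds. Some descend from bacterial ribosomal proteins, and others were added in mitochondria. The mitoribosome makes core subunits of the respiratory chain and of ATP synthase, and its genes are often counted among the growth genes that rise with MYC. In the standard nomenclature 25 of the 77 genes belong to the small subunit and 51 to the large one, among them MRPS30 and MRPS18A, which were named before their place was known. The remaining gene, MRPS36, is called KGD4 in RefSeq and belongs to a dehydrogenase complex. Bacterial homologues made up 44 of the genes and mitochondria-specific proteins 32. The genes lay on 21 chromosomes in the RefSeq annotation of GRCh38.p14.

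CHD1, the chromatin remodeller targeted by the hairpins, was measured at 22.2 to 34.3 CPM (counts per M counts of a library, scaled by the trimmed mean of M-values, TMM) in the 16 libraries with a CHD1 hairpin and at 74.2 to 95.3 CPM in the 8 with the GFP hairpin, without overlap. Total counts ran from 4.14 to 93.3 M, the lowest in replicate 1 of PE with the GFP hairpin. No pair of replicates agreed within counting noise (chi-square of 5.90 to 48.2 for each degree of freedom), and each library was counted as 1 sample. Of 10 breast epithelial markers, 9 had counts in every library, while TP63 was at 0 in 5 libraries and reached at most 1.32 CPM. Among the 9, the lowest library was at 0.134 CPM for CDH1, 0.347 CPM for KRT14 and 1.58 CPM for KRT17. Markers of other cell types moved with the lines: 7 fibroblast markers summed to 19.3 to 41.5 CPM in PM and 51.7 to 65.7 CPM in PE with the GFP hairpin, 4 endothelial markers to 0.424 to 1.90 and 6.91 to 8.89 CPM, and 5 immune markers to 50.8 to 55.5 and 66.5 to 75.5 CPM. The part of these markers in the results was not tested. In RNA from whole cultures, fewer cells of a type and less RNA per cell cannot be told apart.

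Together the 77 genes took 0.407 to 0.701% of the counts of a library. Their summed level was 5654 ± 179 CPM in PM with hairpin B, 6830 ± 332 CPM with hairpin A and 5505 ± 307 CPM with the GFP hairpin (SD, n = 4 each). In PE it was 4230 ± 148 CPM with hairpin B, 4661 ± 258 CPM with hairpin A and 4241 ± 252 CPM with the GFP hairpin (SD, n = 4 each). Every PM library lay above every PE library, and within PM the hairpin A libraries lay above all others. Both statements held for the large-subunit and for the small-subunit genes taken alone, as the plot of summed levels shows. MRPS18B, 1 of 3 paralogs of the bacterial protein S18, held 6.49% of the summed level, followed by MRPL3 with 3.68%. Per kilobase of the principal transcript, MRPS18B was again highest at 221 CPM per kb. It was followed by MRPL12, whose protein forms the stalk that recruits translation factors, at 124, and by MRPL24 at 118 and MRPL3 at 112 CPM per kb. The median gene was at 39.3 CPM per kb and the quartiles at 22.7 and 66.8. Lowest were MRPS28 at 8.75 and MRPL42 at 4.99 CPM per kb. The last place of MRPL42 rests on the length used, a principal transcript of 15582 bases. By share of the summed level it ranked 23 of the 77 genes, at a mean of 77.8 CPM.

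**Figure D1:**
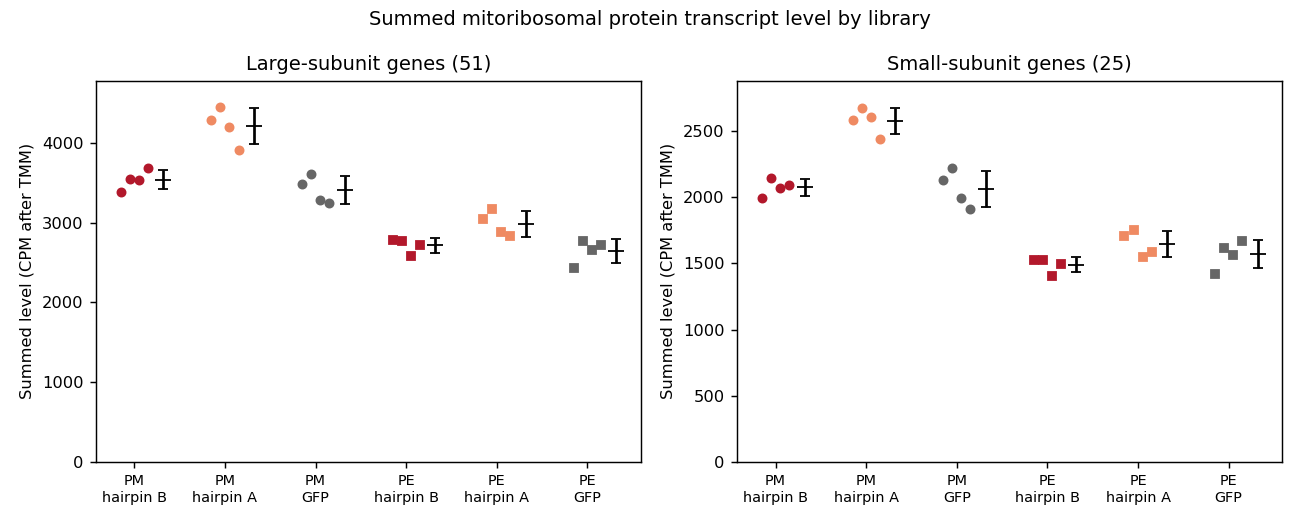
Summed level of the 51 large-subunit genes (left) and the 25 small-subunit genes (right) in CPM after TMM scaling, by group, with a point for each library and bars for the mean ± SD of 4 libraries. PM with hairpin A is highest in both panels, at 4213 ± 224 and 2578 ± 99.9 CPM, and all PM libraries lie above all PE libraries.

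The first comparison asks how the MYC-transformed line differs from the non-transformed one without CHD1 depletion. Mitoribosomal genes were higher in PM throughout. With the GFP hairpin, 61 of the 77 genes were higher in PM than in PE and none was lower (edgeR's quasi-likelihood test, adjusted p under 0.05), where 14.1% of all tested genes were called higher and 11.4% lower. All 77 log2 differences were above 0, from 0.07 for MRPL49 to 0.71 for MRPL4, with a median of 0.37 against 0.02 over all genes tested. The libraries of the lines did not overlap for 52 genes, all higher in PM, against 14.8% of all genes in that direction. The small subunit had 21 of 25 genes called and the large subunit 40 of 51. By origin, 38 of 44 bacterial homologues and 23 of 32 mitochondria-specific genes were called.

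MRPL4, a core protein that lines the exit tunnel of the large subunit, was at 134, 141, 136 and 124 CPM in PM with the GFP hairpin, against 71.2, 88.6, 76.8 and 88.6 CPM in PE. The lowest PM library stood well above the highest PE library, and the log2 difference was 0.71 (SE 0.09, adjusted p = 6.50e-07). MRPS17, a primary RNA-binding protein of the small subunit, was at 30.9, 34.7, 27.2 and 32.2 CPM in PM and at 16.5, 21.5, 19.7 and 20.4 CPM in PE. Its libraries did not overlap either (log2 difference 0.65, SE 0.09, adjusted p = 1.62e-06). MRPS30, a mitochondria-specific protein of the large subunit, was at 54.9, 60.9, 51.2 and 45.2 CPM in PM and at 32.9, 36.8, 31.6 and 38.1 CPM in PE. The lines were again apart, by 0.60 on the log2 scale (SE 0.09, adjusted p = 2.07e-06). MRPL46 differed by 0.64, MRPS9 by 0.60 and MRPL58, a peptidyl-tRNA hydrolase built into the large subunit, by 0.60 on the log2 scale, each without overlap between the lines.

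MRPL12, which also binds the mitochondrial RNA polymerase, was at 157, 161, 167 and 158 CPM in PM and at 90.3, 130.3, 114.5 and 127 CPM in PE with the GFP hairpin. All PM libraries were above all PE libraries, by 0.46 on the log2 scale (SE 0.09, adjusted p = 0.000106). The 3 paralogs of bacterial S18 sit at different places of the ribosome and can be compared with each other. MRPS18B was at 371, 399, 346 and 288 CPM in PM and at 240.1, 272, 291 and 302 CPM in PE, so 1 PM library lay within the range of PE (log2 difference 0.34, adjusted p = 0.00114). MRPS18C differed by 0.33 with an adjusted p of 0.0218, a call lost without PE GFP replicate 3, PM GFP replicate 1 or PM GFP replicate 2 (lowest 0.21 on the log2 scale, adjusted p = 0.198). MRPS18A, the paralog placed in the large subunit, differed by 0.20 and was not called (adjusted p = 0.301). MRPS11, MRPS6 and MRPL48 were also among the 16 genes not called, with log2 differences of 0.16, 0.12 and 0.10. MYC itself averaged 518 ± 27.4 CPM in PM and 275 ± 17.7 CPM in PE with the GFP hairpin (SD, n = 4 each).

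**Figure D2:**
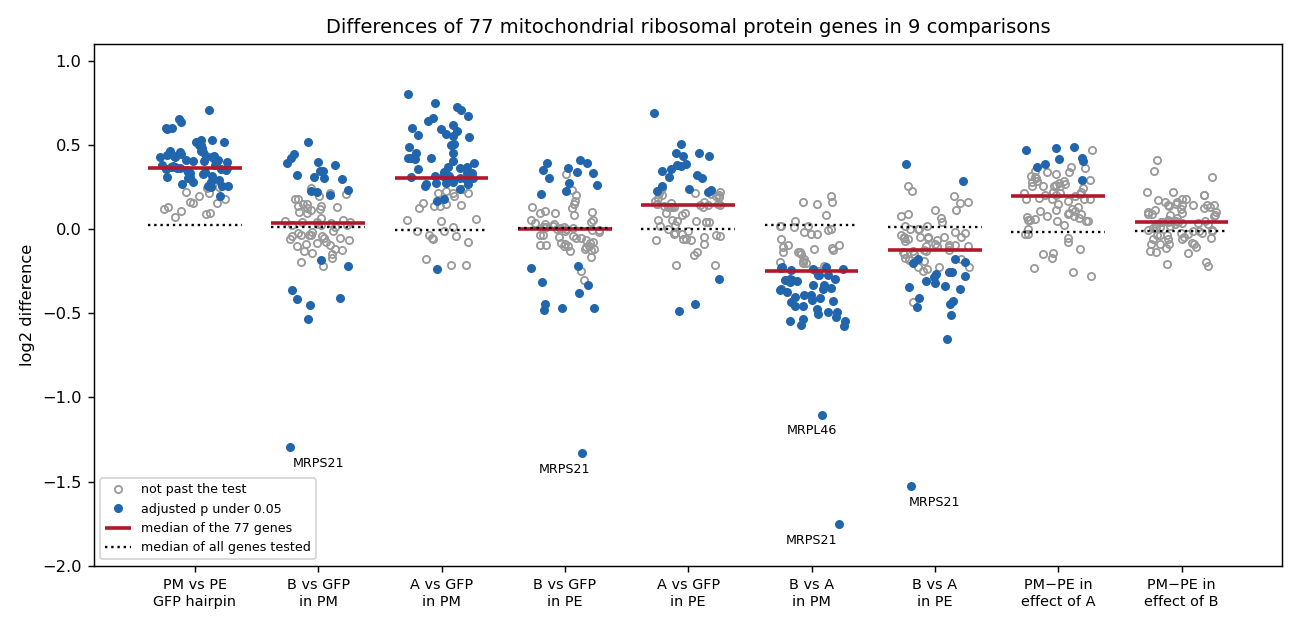
Log2 differences of the 77 genes in 9 comparisons, 1 point per gene, filled where the adjusted p was under 0.05. Red lines mark the median of the 77 genes and dotted lines that of all genes tested. The medians stand apart most in PM against PE, at 0.37 against 0.02, and for hairpin A against GFP in PM, at 0.31 against -0.01. MRPS21 lies below all others wherever hairpin B is compared with GFP or with hairpin A.

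Promoters were read for the genes that moved together, from RefSeq windows of GRCh38.p14 that reach from 250 bases before to 50 bases after each start, and 69 of the 77 genes matched. The E-box CACGTG, the binding motif of MYC with MAX and its own reverse complement, was present in 7 of the 69 windows, or 10.1%, against 7.43% of all 27305 windows and 8.88% of the 15842 windows of protein-coding genes. Among these 7 windows is that of MRPS36, which does not belong to the mitoribosome, so the share is near that of coding genes. The ETS motif CCGGAAG, searched on both strands and distinct from the E-box in its letters, was in 29 windows, or 42.03%, against 10.7% of all and 14.2% of coding windows. In PM against PE with the GFP hairpin, 5 of the 7 genes with an E-box were called higher (median log2 difference 0.33), against 49 of the 62 without one (median 0.37). Of the genes with the ETS motif 20 of 29 were called (median 0.33), and of those without it 34 of 40 (median 0.38). A match of letters is a description of the window only. Windows of 100 bases before the start are shown for MRPL20, which had the largest rise with hairpin A, and for MRPS21 and MRPL46, which had the largest falls with hairpin B in PM. They are read 5′ to 3′ on the strand of the gene, with CCGGAAG or its reverse complement CTTCCGG in capitals. MRPL20 is at chr1:1407294-1407393 on the minus strand, MRPS21 at chr1:150293761-150293860 on the plus strand and MRPL46 at chr15:88467389-88467488 on the minus strand.
MRPL20: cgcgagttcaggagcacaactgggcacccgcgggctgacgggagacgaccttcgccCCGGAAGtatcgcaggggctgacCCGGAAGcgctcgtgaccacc
MRPS21: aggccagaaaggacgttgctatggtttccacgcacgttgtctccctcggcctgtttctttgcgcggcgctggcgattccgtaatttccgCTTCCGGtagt
MRPL46: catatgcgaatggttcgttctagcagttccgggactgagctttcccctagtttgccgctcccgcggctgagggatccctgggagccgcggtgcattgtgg

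Among the 7 windows with an E-box are those of MRPL36 and MRPL45, which both rose with hairpin A in both lines, and that of MRPS18C. With hairpin A in PM, 4 of the 7 genes with an E-box rose (median log2 change 0.27), against 41 of the 62 without one (median 0.30). In PE 3 of the 7 rose (median 0.17), against 14 of the 62 (median 0.14). Of all tested genes, 13.4% rose in PM and 10.9% in PE. Stretches of 60 bases around the E-box are shown with CACGTG in capitals, for MRPL36 from chr5:1799861-1799920 on the minus strand, for MRPL45 from chr17:38297008-38297067 on the plus strand and for MRPS18C from chr4:83455852-83455911 on the plus strand.
MRPL36: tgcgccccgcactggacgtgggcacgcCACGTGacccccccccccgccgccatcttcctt
MRPL45: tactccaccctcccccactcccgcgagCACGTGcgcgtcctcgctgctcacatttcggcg
MRPS18C: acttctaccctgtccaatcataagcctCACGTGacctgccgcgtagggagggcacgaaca

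The start of a neighbour on the opposite strand lay within 1000 bases upstream for 18 of the 69 genes, or 26.1%, against 1630 of 15842 coding genes, or 10.3%. MRPL46 and MRPS11 form such a pair with each other, their starts 320 bases apart. The other 16 pairs join a mitoribosomal gene to a gene of another kind, such as FAU, TCP1, PSMA2 or HIRA. Of these 16 neighbours 4 were called higher and none lower in PM against PE with the GFP hairpin, beside 14.1% and 11.4% of all genes. Their median log2 difference was 0.11, against 0.02 over all genes. The same 16 neighbours had a median of 0.14 with hairpin A against GFP in PM, against -0.01 over all genes. In that comparison 5 of them were higher and 3 lower, beside 13.4% and 14.3% of all genes.

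The CHD1 hairpins A and B were each tested against the control hairpin, separately in PM and PE. The comparisons within a line share the GFP libraries, so their values are given side by side and not as repeats of each other. The 10 breast epithelial markers also moved: their summed level was 2277 to 2710 CPM with hairpin B, 1912 to 2115 CPM with hairpin A and 2945 to 3313 CPM with the GFP hairpin in PM, and 1978 to 2583, 2403 to 3108 and 3645 to 5241 CPM with the same hairpins in PE. Of the 10, hairpin B lowered 3 and raised 1 in PM and lowered 7 and raised 2 in PE, and hairpin A lowered 3 and raised 1 in PM and lowered 4 and raised 2 in PE. Log2 changes of the 10 ran from -2.63 to 1.39 with hairpin B and from -2.39 to 0.30 with hairpin A in PM. In PE they ran from -6.22 to 1.17 and from -2.39 to 0.70. The fibroblast markers summed to 37.2 to 65.2 CPM with hairpin B and 14.0 to 18.9 CPM with hairpin A in PM, and to 25.99 to 44.05 and 29.4 to 42.9 CPM in PE. The immune markers summed to 37.2 to 46.7 CPM with hairpin B and 36.4 to 43.2 CPM with hairpin A in PM, below the 50.8 to 55.5 CPM of the GFP hairpin, and in PE to 58.6 to 82.6, 66.4 to 76.8 and 66.5 to 75.5 CPM with overlap. The endothelial markers summed to 6.08 to 10.7 CPM with hairpin B, 10.1 to 12.9 CPM with hairpin A and 6.91 to 8.89 CPM with the GFP hairpin in PE, and to 1.23 to 3.01, 1.89 to 2.34 and 0.424 to 1.90 CPM in PM. The part of these shifts in the results was not tested. With hairpin A in PM the mitoribosomal genes were mostly higher: 50 of 77 rose and MRPS6 alone fell, where 13.4% of all tested genes were called higher and 14.3% lower (27.8% in either direction). The median log2 change was 0.31, against -0.01 over all genes, and the libraries were apart for 46 genes that were higher (14.1% of all genes) and 3 that were lower (15.0%). The small subunit had 17 of 25 genes higher and the large subunit 33 of 51. In PE, 19 of the 77 genes rose with hairpin A and 3 fell, against 10.9% and 9.33% of all genes (20.2% in either direction), with a median of 0.14 against -0.00. The libraries were apart for 17 genes that were higher (12.0% of all genes) and 2 that were lower (9.19%). With library sizes alone as the scaling, the split in PE became 13 higher and 6 lower.

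MRPL20, a protein of the large subunit that binds early in its assembly in bacteria, was at 100.0, 98.9, 96.7 and 83.9 CPM with hairpin A in PM, against 54.4, 61.4, 49.7 and 52.4 CPM with the GFP hairpin. All 4 hairpin A libraries were above the GFP libraries (log2 change 0.80, SE 0.08, adjusted p = 3.52e-09). In PE it was at 78.6, 76.2, 63.5 and 65.5 CPM with hairpin A and at 36.5, 47.4, 41.9 and 47.8 CPM with the GFP hairpin, again apart (log2 change 0.69, SE 0.09, adjusted p = 2.16e-07). Hairpin B raised MRPL20 as well, to 70.9, 66.6, 73.6 and 74.6 CPM in PM and to 59.3, 64.0, 56.9 and 54.4 CPM in PE. These libraries too lay above those of the GFP hairpin, by 0.39 in PM and 0.41 in PE on the log2 scale (adjusted p = 0.000443 and 0.000337). The antisense row MRPL20-AS1 held 17888 counts, 23.2% as many as MRPL20, and was called in no comparison. The labels do not say whether reads were counted by strand, and the rows of overlapping genes are therefore uncertain.

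MRPL28, a protein of the large subunit with a bacterial homologue, was at 136, 139, 146 and 116 CPM with hairpin A in PM and at 84.7, 79.4, 80.3 and 74.6 CPM with the GFP hairpin. The groups did not overlap, and the log2 change was 0.75 (SE 0.08, adjusted p = 1.65e-09). MRPS17 reached 52.3, 53.8, 51.9 and 48.2 CPM with hairpin A in PM, against the 27.2 to 34.7 CPM of the GFP hairpin (log2 change 0.72, adjusted p = 9.04e-08). MRPL36, among the smallest proteins of the large subunit, was at 79.6, 82.9, 80.6 and 74.2 CPM with hairpin A in PM and at 49.2, 48.1, 45.5 and 51.7 CPM with the GFP hairpin. It was apart in every library and rose by 0.71 on the log2 scale (adjusted p = 1.37e-09). MRPL10, which anchors the MRPL12 stalk, rose by 0.67, and MRPS27, a pentatricopeptide repeat protein of the small subunit, by 0.66. MRPL12 itself had a log2 change of -0.01 with hairpin A in PM, with 150.4, 177, 172 and 139.7 CPM around the 157 to 167 CPM of the GFP hairpin (adjusted p = 0.958).

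In PE the largest rises with hairpin A after MRPL20 were those of MRPL28 at 0.51, MRPL36 at 0.45, MRPL45 at 0.45, MRPL9 at 0.44 and MRPL24 at 0.43 on the log2 scale. MRPL45, which sits at the exit of the tunnel and holds the ribosome to the inner membrane, was at 76.2, 90.9, 78.0 and 68.7 CPM with hairpin A and at 65.0, 59.1, 54.4 and 53.3 CPM with the GFP hairpin in PE, without overlap (adjusted p = 0.000289). Its log2 changes were alike in the other comparisons, at 0.39 with hairpin B in PE, 0.52 with hairpin B in PM and 0.50 with hairpin A in PM, all called. A row with a related symbol, MRPL45P2, held 3.49% as many counts, so some reads of MRPL45 may be shared. In PM against PE with the GFP hairpin edgeR called MRPL45P2 higher, by 0.65 on the log2 scale (adjusted p = 0.0473).

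Few genes fell with hairpin A. MRPS9, a small-subunit protein whose bacterial homologue contacts transfer RNA, was at 27.7, 18.8, 17.3 and 21.7 CPM with hairpin A in PE and at 24.5, 32.3, 29.1 and 32.3 CPM with the GFP hairpin. A single hairpin A library, replicate 1, lay inside the GFP range (log2 change -0.48, adjusted p = 0.000890). In PM the change of MRPS9 was -0.18 and was not called (adjusted p = 0.213). MRPL48 fell in PE with hairpin A, by 0.45 on the log2 scale, to 20.7, 19.3, 15.8 and 20.3 CPM, against 22.3, 30.3, 25.5 and 24.9 CPM with the GFP hairpin, without overlap (adjusted p = 0.00248). MRPS6, a small-subunit protein, had log2 changes of -0.30 and -0.24 with hairpin A in PE and PM and of -0.22 with hairpin B in each line, all called. The call in PM with hairpin A was lost without PM A replicate 1 or 4 or PM GFP replicate 1 or 2 (adjusted p up to 0.120). With hairpin B the calls of MRPS6 were lost without any of 6 libraries in PE and of 4 in PM (adjusted p up to 0.142 and 0.176). With no filter on low counts these calls and that of hairpin A in PM were lost as well (adjusted p = 0.137, 0.121 and 0.0798), and the call with hairpin B in PM also with DESeq2 size factors (0.0532) or library sizes alone (0.0792).

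**Figure D3:**
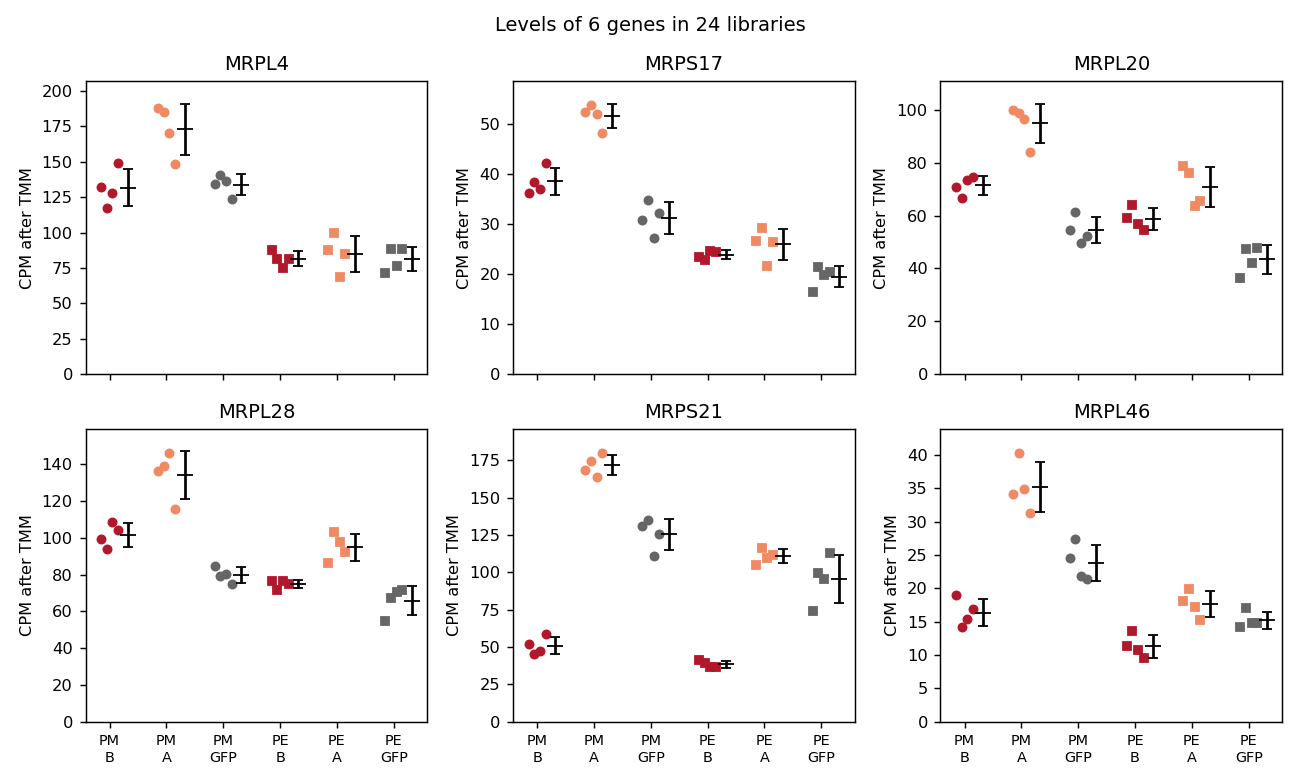
Levels of MRPL4, MRPS17, MRPL20, MRPL28, MRPS21 and MRPL46 in CPM after TMM scaling, with a point for each of 24 libraries and bars for the mean ± SD of 4 libraries per group. The hairpin B libraries of MRPS21 lie at 36.3 to 59.0 CPM and all others at 74.1 CPM or above, while MRPL4 separates mainly by line.

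Hairpin B moved these genes both ways. In PM 16 of the 77 genes rose and 8 fell, against 13.6% and 14.4% of all tested genes, and the median log2 change was 0.04 against 0.01. In PE 12 rose and 10 fell, against 13.6% and 13.2% of all genes, with a median of -0.00 against 0.01. The libraries were apart for 16 higher and 9 lower genes in PM (13.9% and 14.9% of all genes) and for 12 higher and 7 lower genes in PE (13.8% and 11.4%). The share of the 77 genes called was 31.2% in PM and 28.6% in PE, near the 28.1% and 26.8% of all genes called in either direction. With library sizes alone as the scaling, the split in PM became 24 higher and 6 lower. MRPL45 had the largest rise in PM, at 0.52, followed by MRPS33 at 0.45, MRPS18A at 0.42, MRPL32 at 0.40, MRPL20 at 0.39 and MRPL40 at 0.38.

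The largest fall with hairpin B was that of MRPS21 (chr1:150293861-150308979, plus strand), whose bacterial homologue sits on the platform of the small subunit. It was at 51.7, 45.7, 47.6 and 59.0 CPM with hairpin B in PM, against 131, 135, 111 and 126 CPM with the GFP hairpin. Every hairpin B library was far below the GFP libraries, with a log2 change of -1.30 (SE 0.09, adjusted p = 1.14e-13). In PE it was at 41.5, 39.4, 36.3 and 36.6 CPM with hairpin B and at 74.1, 99.8, 95.4 and 113 CPM with the GFP hairpin, with no overlap and a log2 change of -1.33 (SE 0.09, adjusted p = 1.06e-13). With hairpin A it was at 169, 174.5, 164 and 179.8 CPM in PM, above every GFP library (log2 change 0.45, adjusted p = 8.89e-05), and at 105, 117, 109.9 and 111 CPM in PE, where its change of 0.20 was not called (adjusted p = 0.114). The rows whose symbols mark them as its copies held at most 3 counts each in the whole table, beside 111646 for MRPS21. The labels give no target sequences of the hairpins, and whether hairpin B acts on MRPS21 other than through CHD1 was not tested.

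MRPL46, a mitochondria-specific protein of the large subunit, also fell with hairpin B. It was at 19.0, 14.2, 15.4 and 16.9 CPM with hairpin B in PM, below the 24.6, 27.3, 21.8 and 21.4 CPM of the GFP hairpin (log2 change -0.54, SE 0.11, adjusted p = 0.000411). With hairpin A in PM it was at 34.2, 40.3, 34.9 and 31.3 CPM, above every GFP library (log2 change 0.57, adjusted p = 0.000185). In PE it was at 11.4, 13.6, 10.8 and 9.52 CPM with hairpin B and at 14.2, 17.0, 14.8 and 14.7 CPM with the GFP hairpin, apart by little (log2 change -0.45, adjusted p = 0.00485). MRPS11, whose start faces that of MRPL46, had log2 changes of 0.09 in PM and 0.21 in PE with hairpin B, neither called (adjusted p = 0.497 and 0.0919).

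Further large-subunit genes were also lower with hairpin B. MRPL42 was at 70.2, 67.4, 67.7 and 82.1 CPM with hairpin B in PM and at 98.2, 100.6, 98.0 and 95.7 CPM with the GFP hairpin. All hairpin B libraries were lower (log2 change -0.45, adjusted p = 1.26e-05), and in PE the change was -0.48. MRPL12 was at 115, 119, 131 and 136 CPM with hairpin B in PM, below the 157 to 167 CPM of the GFP hairpin (log2 change -0.36, adjusted p = 0.00147). In PE it was at 92.3, 96.0, 83.6 and 104 CPM with hairpin B, and the lowest GFP library, at 90.3 CPM, lay within that range (log2 change -0.31, adjusted p = 0.00651). MRPL58 fell by 0.41 in PM and by 0.47 in PE on the log2 scale, and MRPL30 by 0.41 and by 0.38. MYC averaged 392 ± 12.3 CPM with hairpin B in PM, 564 ± 28.2 CPM with hairpin A and 518 ± 27.4 CPM with the GFP hairpin (SD, n = 4 each), and the part of this difference in the results was not tested.

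The hairpins were compared with each other directly. The hairpin A and B libraries are those already set against GFP, so these counts are not separate from the results above. In PM 43 of the 77 genes were lower with hairpin B than with hairpin A and none was higher, where 13.5% of all tested genes were lower and 12.7% higher, and the median log2 difference was -0.25 against 0.03. The libraries were apart for 40 genes that were lower with hairpin B, against 13.4% of all genes, and for 2 that were higher (12.8%). In PE 21 genes were lower and 2 higher with hairpin B, against 9.09% and 7.48% of all genes, with a median of -0.12 against 0.01. Here the libraries were apart for 18 genes that were lower (10.6% of all genes) and 2 that were higher (10.0%). The number called in PE was 13 without PE A replicate 2 and 15 without PE B replicate 3. CHD1 itself averaged 29.5 ± 5.40 CPM with hairpin B and 31.04 ± 2.76 CPM with hairpin A in PM, and 28.1 ± 3.07 and 29.2 ± 1.20 CPM in PE (SD, n = 4 each). edgeR did not call CHD1 different between the hairpins (adjusted p = 0.648 in PM and 0.769 in PE). Whether the changes with hairpin A, or the differences between the hairpins, arise through CHD1 was not tested.

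MRPS21 differed most between the hairpins, by -1.75 in PM and -1.53 in PE (B over A, log2; adjusted p = 1.02e-16 and 1.54e-14), followed by MRPL46 at -1.10 and -0.65. In PM the next were MRPL36 at -0.57 and MRPL35 at -0.57, and in PE MRPL9 at -0.51 and MRPL58 at -0.46. MRPS9 and MRPL23, a protein at the tunnel exit, were higher with hairpin B in PE, by 0.39 and 0.29. The call of MRPL23 (adjusted p = 0.0360) was lost without PE A replicate 2 or 3 or PE B replicate 3 or 4, down to 0.21 on the log2 scale. MRPL12 was lower with hairpin B by 0.35 in PM and by 0.25 in PE on the log2 scale. Its call in PE (adjusted p = 0.0400) was lost without any of 6 single libraries of the compared groups, with an adjusted p of up to 0.167, and with library sizes alone.

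Whether the response to each CHD1 hairpin differed between the lines was tested as an interaction. For hairpin A, 9 of the 77 genes responded more positively in PM than in PE and none less, where 2.76% of all tested genes were called in that direction and 3.90% in the other (6.66% in either). The median difference of log2 changes was 0.20, against -0.02 over all genes. The count of 9 depended on single libraries: it was 4 without PE A replicate 4 or PE GFP replicate 4, 4 without PE GFP replicate 2, where 1 more gene was called in the other direction, 5 without PE A replicate 3, PM A replicate 2 or 3 or PM GFP replicate 3 or 4, and 14 without PE A replicate 2, PM A replicate 4 or PM GFP replicate 2. For hairpin B edgeR called none of the 77, where 1.47% of all genes were called in the positive and 0.980% in the negative direction (2.45% in either). At an unadjusted p under 0.05, 4 genes passed, and the DESeq2 Wald test called 1.

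MRPS18B differed most, with 430, 441, 459 and 442 CPM with hairpin A in PM against 371, 399, 346 and 288 CPM with the GFP hairpin. In PE it was at 268, 273, 222 and 235 CPM with hairpin A and at 240.1, 272, 291 and 302 CPM with the GFP hairpin. The groups were apart in PM and overlapped in PE, and the difference between the responses was 0.49 on the log2 scale (SE 0.11, adjusted p = 0.00466). MRPS26 differed by 0.48, MRPL1, which forms the stalk beside the exit site for transfer RNA, by 0.47, and MRPS30 by 0.43. MRPL32, which is cut by a protease of the inner membrane before it joins the ribosome, differed by 0.41 and MRPS27 by 0.40. MRPL2, a core protein near the site of peptide bond formation, differed by 0.38, MRPS2 by 0.37 and MRPL19 by 0.29. The calls of MRPS18B, MRPL32 and MRPS27 held in each fit that left out 1 library or changed the scaling, filter, block or tool, while each of the other 6 was lost in at least 4 fits without 1 library.

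**Figure D4:**
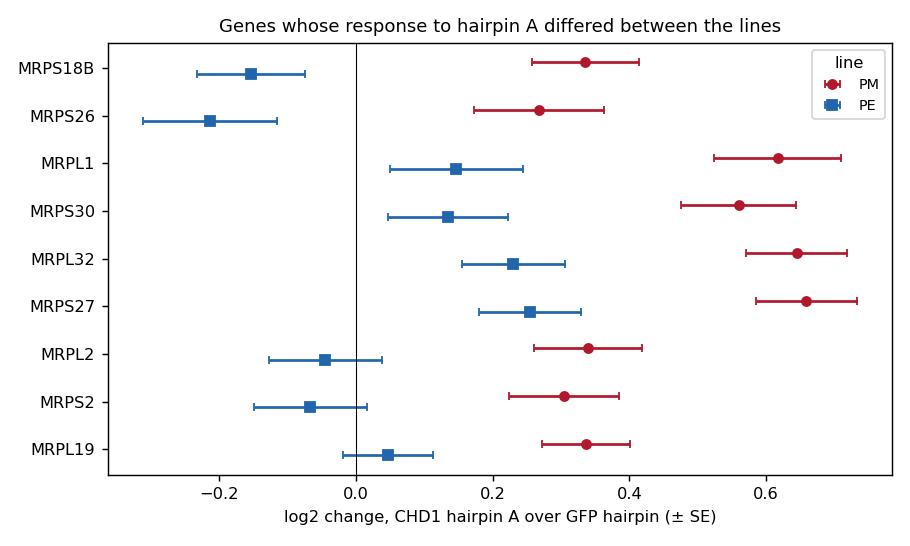
Log2 change with CHD1 hairpin A over the GFP hairpin, ± SE, in PM (red circles) and PE (blue squares) for the 9 genes whose response differed between the lines. The PM value is to the right of the PE value for each gene, with MRPS18B at 0.34 and -0.15 and MRPS27 at 0.66 and 0.25.

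Genes that act with the mitoribosome were counted on the same tests. In PM against PE with the GFP hairpin, 4 of 5 mitoribosomal proteins with other symbols, 21 of 26 assembly factors, 9 of 15 translation factors and 4 of 5 transcription factors of mitochondria were higher and none was lower, beside the 14.1% and 11.4% of all genes. Of the 13 mRNAs of the mitochondrial genome, none was called by edgeR or by the DESeq2 Wald test, and 3 had an unadjusted p under 0.05. MRM1, which methylates the large ribosomal RNA, was higher by 1.08, GTPBP6 by 0.75 and DDX28, a helicase of large-subunit assembly, by 0.73 on the log2 scale. The elongation factor GFM1 was higher by 0.65, the RNA polymerase POLRMT by 0.59 and its partner TFAM by 0.57.

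With hairpin A in PM, 13 of 26 assembly factors and 9 of 15 translation factors rose, while 1 translation factor, MTRFR, fell, beside 13.4% of all genes called higher and 14.3% lower. None of the 5 transcription factors was called by edgeR, while 2 had an unadjusted p under 0.05 and the DESeq2 Wald test called 2 higher. In PE the assembly factors split into 5 higher and 2 lower and the translation factors into 3 and 2, with 10.9% and 9.33% of all genes. With hairpin B the assembly factors had 3 higher and 4 lower in PM, close to the shares of all genes (13.6% and 14.4%), and 3 higher and 7 lower in PE (13.6% and 13.2% of all genes). GFM2, which splits mitoribosomes after termination, was at 53.2, 56.8, 56.8 and 52.7 CPM with hairpin B and at 55.8, 54.5, 53.5 and 56.5 CPM with hairpin A in PM, against 28.8, 32.3, 30.8 and 29.7 CPM with the GFP hairpin. Both hairpins were far above the control libraries, by 0.85 with hairpin B and 0.86 with hairpin A in PM and by 0.78 and 0.88 in PE on the log2 scale. GADD45GIP1, a mitochondria-specific protein of the large subunit under another symbol, rose by 0.46 with hairpin B and 0.73 with hairpin A in PM, and by 0.53 and 0.67 in PE.

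MPV17L2, an inner membrane protein needed for mitoribosome assembly, was at 11.0, 10.1, 8.17 and 12.6 CPM with hairpin B in PM, at 25.2, 24.9, 23.1 and 25.9 CPM with hairpin A, and at 17.0, 17.6, 15.9 and 13.2 CPM with the GFP hairpin. The hairpins stood on opposite sides of the control without overlap, with log2 changes of -0.60 for B and 0.64 for A (adjusted p = 0.000558 and 0.000263). In PE its log2 change was -0.76 with hairpin B, a fall, and 0.17 with hairpin A, which was not called. LRPPRC, which stabilises mitochondrial mRNAs, rose with both hairpins, by 0.51 with hairpin B and 0.65 with hairpin A in PM and by 0.42 and 0.28 in PE. Of the 13 mitochondrial mRNAs, 2 rose with hairpin B in PM, 4 with hairpin A in PM, 2 with hairpin B in PE and 1 with hairpin A in PE, where 13.6%, 13.4%, 13.6% and 10.9% of all genes rose. The counts with hairpin B and with hairpin A in PE are near or below these shares. Among them COX3 had log2 changes of 0.37, 0.67, 0.41 and 0.46 in that order, and its call with hairpin B in PM was lost without PM B replicate 4 or PM GFP replicate 3 (adjusted p up to 0.0606).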

How the data were processed

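Poly(A) RNA of 24 libraries was measured as counts per gene. Per the labels' protocols, RNA came from 200000 cells, with DNase digestion, and the library kit was directional. According to the labels and per the submitters' processing notes, FastQC, Trim Galore 0.4.0, HISAT2 2.2.1, featureCounts and the build GRCh38 were used to make the deposited counts. How multiply matched reads were handled, which annotation release was used and whether counting used strand are not given in the sources here. Groups and replicate numbers came from the labels.

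The 24 libraries entered a single fit with a mean for each of the 6 groups (edgeR 4.0.16, R 4.3.3), using filterByExpr, TMM scaling and the robust quasi-likelihood F test with 18 residual degrees of freedom. Two-sided p-values of each of 9 comparisons were corrected by the Benjamini-Hochberg method over 20820 genes, and 0.05 was the threshold. An SE was obtained as the absolute log2 change over the root of its F statistic. Levels are CPM on TMM-scaled library sizes, and lengths are those of principal transcripts, the longest where a gene had several. The procedure was tested on simulated data. Alternatives were no filter, a replicate block, each library left out, scaling by DESeq2 size factors or by library sizes alone, and the Wald test of DESeq2 1.42.0.

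The 77 genes, the other lists and the tests were chosen with earlier results of these data known. Named were, among called genes, up to 6 with the largest rise and up to 6 with the largest fall for each CHD1 hairpin against GFP and for PM against PE, and up to 4 each way for the other comparisons. MRPS18A, MRPS18B, MRPS18C and MRPL12 were also to be named where they were called, and up to 4 called genes from each other list. Not all of these values were described above. Among those left out were the log2 changes of MRPS18A with hairpin A in PM, at 0.60, and of MRPS18B with hairpin B in PM, at 0.31. Other values of the named genes, and MRPS11, were added after their values were seen, as were the 5 further genes whose response to hairpin A differed between the lines.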

Additional observations from a re-analysis of the deposited data

Results flagged for a closer look

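A library that stands apart from the other 3 of its group was looked for in 126 groups, which held the levels of the genes described by library and the summed level, its share of counts and the total count. The gap exceeded Dixon's limit in 2 of them, and chance flags about 1 in 20 groups. MRPS18A was at 16.9 CPM in replicate 1 of PM with hairpin B, while the other 3 libraries were at 21.6 to 22.4 CPM. MRPS6 was at 37.5 CPM in replicate 2 of PM with hairpin A, while the other 3 were at 35.8 to 36.04 CPM.

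The change with hairpin A over GFP differed between PM and PE for 9 genes by the interaction test of edgeR (adjusted p under 0.05), each time with the higher value in PM. The difference of log2 changes was 0.49 for MRPS18B, 0.48 for MRPS26, 0.47 for MRPL1, 0.43 for MRPS30, 0.41 for MRPL32, 0.40 for MRPS27, 0.38 for MRPL2, 0.37 for MRPS2 and 0.29 for MRPL19. Single libraries decided several of these calls. MRPS26 was lost without PE A replicate 3, PE GFP replicate 2 or 4, PM A replicate 2 or 3 or PM GFP replicate 4 (adjusted p up to 0.0716). MRPL1 was lost without PE A replicate 4, PE GFP replicate 4, PM A replicate 2 or PM GFP replicate 3 (adjusted p up to 0.0807). MRPS30 was lost without PE A replicate 4, PE GFP replicate 2 or 4 or PM GFP replicate 4 (adjusted p up to 0.0800). MRPL2 was lost without any of 8 libraries, MRPS2 of 13 and MRPL19 of 13, with an adjusted p of up to 0.0842, 0.149 and 0.112. The call of MRPL19 was also lost with no filter on low counts (adjusted p = 0.122).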

How the results depend on the processing

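Each count of called genes was recomputed with DESeq2 size factors, library sizes alone, no filter, the DESeq2 Wald test, a replicate block and each library left out, and also, chosen after seeing the data, without PE GFP replicate 1, PM A replicate 4 and PM B replicate 3 together. These 3 libraries had counts for 18380, 19514 and 33137 genes, in that order, and the other libraries for 21732 to 24764. None of 80 named results on mitoribosomal genes and 105 on genes of the other lists changed direction. Printed changes outside these results, such as that of MRPL12 with hairpin A in PM, were not checked for this. Single genes were also not followed in the fit without the 3 libraries together. Leaving out 1 library gave 51 to 61 called genes for PM against PE, 46 to 54 for hairpin A and 19 to 27 for hairpin B in PM, 18 to 26 for hairpin A and 18 to 24 for hairpin B in PE, 39 to 47 for B against A in PM and 13 to 24 in PE. The difference between the lines in the effect of hairpin A gave 4 to 14, and that of hairpin B 0 to 2, with 2 without PM GFP replicate 2. The count for hairpin A became 17 with library sizes alone, 16 with the Wald test, 16 with the replicate block (1 of them in the other direction) and 16 without the 3 libraries, against 9, and that for hairpin B became 1 with library sizes alone, with the block and with the Wald test, against 0. The cause was not tested. With no filter the median log2 change of all genes was 0.12 for hairpin B in PM and 0.15 for B against A in PM, against 0.01 and 0.03 with it. The part of PM B replicate 3 in these medians was not tested. Of 80 named results on mitoribosomal genes, 12 lost their call in at least 1 alternative. Replicate numbers were not used as pairs: deviations of libraries with the same number correlated at 0.00440 to 0.0885, though 3 or 4 of 4 correlated best with their own number, and the block gave no other count beyond 1.5 times the value without it. Depth limits replicate 1 of PE with the GFP hairpin most, at 4.14 M counts, where MRPS28 had 20.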
